A study of Mus musculus with 111 samples.

Results

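The genes described here build and run motile cilia in the airway. A list of 37 mouse genes was followed, holding the transcription factors of the ciliated cell, the structural proteins of the moving axoneme and several proteins that mark ciliated cells. A gene was counted as measured if at least 1 probeset of the array was annotated to that gene alone. By this rule 34 of the 37 genes were measured, out of 15707 genes measured in all, and Dnah7b, Spag6 and Lrriq1 were not analysed here. The 34 genes had 49 such probesets, and 11 genes had more than 1.

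Whole lungs of male C57BL6/J mice were profiled on Affymetrix expression arrays after a single dose of bleomycin (2 U/kg, sprayed into the trachea) or of saline. Bleomycin is a DNA-breaking drug that causes inflammation and then fibrosis of the mouse lung. Mice were 7 to 9 weeks old, and lungs were taken at days 1 and 2, at days 7 and 14, and at days 21, 28 and 35. Each group held 8 mice except saline at day 14, which held 7 after the authors removed an array, so that 55 saline and 56 bleomycin mice, each with its own array, were compared. The design asks how the lung at each time differs from its time-matched saline control. Values are log2 levels, in which a difference of 1 is a doubling, and a gene was said to rise or fall where limma gave an adjusted p under 0.05 after correction over all 15707 genes. The array medians ranged from 8.61 to 8.73. The authors had normalized the arrays with RMA, so near-equal medians do not test whether the samples were comparable.

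Multiciliated cells line the conducting airways among secretory club cells and move mucus by beating their cilia. The shaft of each cilium, the axoneme, is a ring of doublet microtubules around a central pair. Dynein arms on the doublets slide them past each other, radial spokes and the central pair set the beat, and nexin links turn sliding into bending. Foxj1 switches on the genes of motile cilia, and the RFX factors, among them Rfx2 and Rfx3, act with it. A whole lung holds few such cells among many others, so fewer ciliated cells and less RNA per ciliated cell cannot be told apart in these samples.

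The ciliary genes were well within the range of the array. Their mean level in saline mice ran from 5.72 for Spef2, a central pair protein, to 13.02 for Tppp3, a tubulin-binding protein abundant in ciliated cells. Tppp3 lay at the 99 percentile of all genes measured, Ak7 (an adenylate kinase of cilia) at the 97.5 percentile and Dynlrb2 (a dynein light chain) at the 96.1 percentile. Foxj1 lay at the 67.7 percentile, while the chosen probesets of Rfx3 at 16.4 and Spef2 at 13.2 were dim. A further probeset of each was brighter, at a saline level of 10.46 for Rfx3 and 7.30 for Spef2. These percentiles rank probeset brightness, which also depends on the probes, and do not order the amounts of RNA.

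Most members moved together from mouse to mouse. After the mean of each day was removed, the level of each gene was correlated with the mean of the other members across the 55 saline mice, and the median Pearson r was 0.935. The value was over 0.8 for 28 of the 34 genes and over 0.9 for 23. Tekt1, a tektin of the doublet wall, had an r of 0.98 with a Spearman rho of 0.97, and the dynein subunit Dnali1 had an r of 0.97 with a rho of 0.96. These values are given as a description, since the points share arrays and each lung was homogenised whole.

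A few members did not follow the rest. Rfx3, read by its dim probeset, had an r of 0.19 and the outer arm dynein Dnah11 an r of 0.36 in saline mice. Tppp3 reached 0.53, Rfx2 0.60, Spag17 0.68 and Tekt2 0.78. In the 56 bleomycin mice the median was 0.926, and the same genes were again lowest, with 0.37 for Rfx3, 0.39 for Dnah11, 0.53 for Tppp3 and 0.66 for Rfx2. The 2 saline mice in which the mean of the other members lay farthest from its day mean were then left out. Without them r was 0.06 for Rfx3 and 0.23 for Dnah11, and it stayed at 0.97 for Tekt1.

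**Figure D1:**
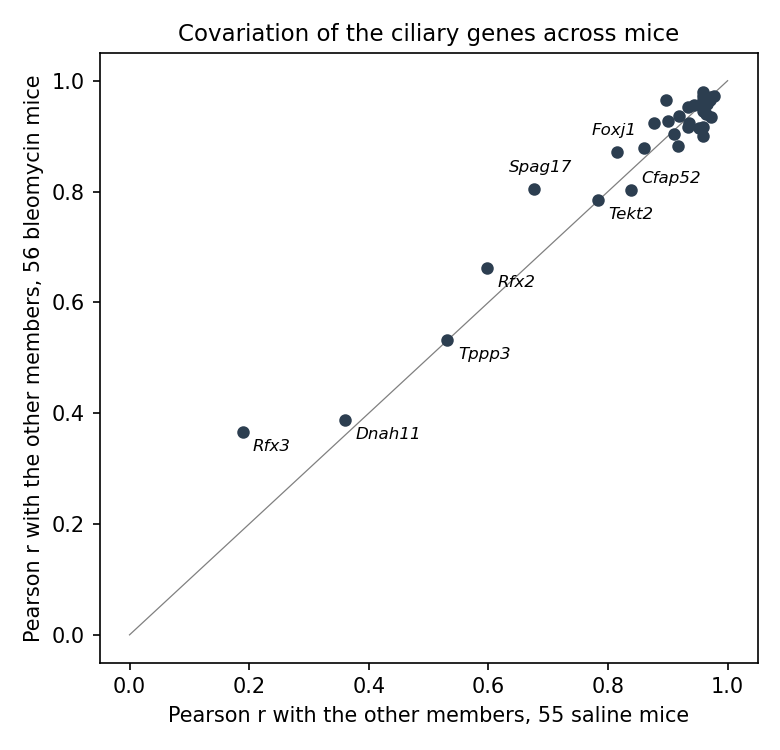
Each point is a ciliary gene, placed by its Pearson correlation with the mean of the other members across 55 saline mice (x axis) and 56 bleomycin mice (y axis), after the mean of each day was removed. Most points lie above 0.8 on both axes, while Rfx3, Dnah11, Tppp3 and Rfx2 lie lowest on both.

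Genes outside the list that belong to the same structures also moved with it. The values below compare the mean of a list with the mean of the members. They are not on the same measure as the single genes above. The mean of 58 other axoneme genes had an r of 0.99 with the mean of the members in saline mice, 9 dynein arm assembly factors had 0.95, and 28 genes of intraflagellar transport, the traffic that builds cilia, had 0.93. Club cell markers had 0.71, and goblet cell markers 0.82. Markers of alveolar type 1 cells had -0.53 and of endothelium -0.50, whereas smooth muscle had 0.65 and cardiac muscle 0.66. In bleomycin mice other axoneme genes had 0.99, dynein arm assembly factors 0.97 and intraflagellar transport 0.95, and smooth muscle was at -0.13. A list of 11 genes that start multiciliation was lower, at 0.67 in saline mice and 0.29 in bleomycin mice. Whether the amount of airway in each sample moved these values was not tested.

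Because the members move together, their promoters were searched for the sites of the factors in the list. RefSeq promoters (build GRCm38.p6, 250 bases before to 50 after the start) were at hand for 29 of the 34 genes and for 27025 genes in all, and both strands were read. The RFX core site GTTGCC was present in 15 of the 29 (51.7%), against 14.1% of all genes. The X-box, a pair of RFX cores written GTNNCC and GGNAAC with up to 3 bases between, was present in 4 (13.8%), namely Lrrc23, Mns1, Spef2 and Tekt4, against 2.68% of all genes. Every X-box arm with the letters GTTGCC or GGCAAC is also counted as a core site. The forkhead core TGTTTAC was present in 2 (6.9%), Ak7 and Cfap43, against 4.05%. A match is only a run of letters, and binding was not measured.

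Of the 14 genes that fell at both day 1 and day 2, 12 had a promoter and 7 of these held the RFX core, while 8 of the other 17 members with a promoter held it. The promoters below are those of genes that fell at both days and hold the site within 120 bases before their start. They are written in the direction of the gene up to the last base before the start, with the core site, or its reverse complement GGCAAC, in capitals. Tekt2 (chr4:126325689-126325808, minus strand) holds a copy in each orientation. Enkur lies at chr2:21205366-21205485 (minus strand), Hydin at chr8:110266857-110266976 (plus strand), Dynlrb2 at chr8:116504895-116505014 (plus strand) and Cdhr3 at chr12:33092876-33092995 (minus strand). Lrrc23 is shown over 250 bases (chr6:124779728-124779977, minus strand) with its X-box in capitals, whose second arm is an RFX core, and it holds a further core nearer the start in lower case.
Tekt2: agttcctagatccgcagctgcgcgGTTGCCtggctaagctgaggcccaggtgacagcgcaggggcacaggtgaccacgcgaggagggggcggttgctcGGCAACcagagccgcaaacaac
Enkur: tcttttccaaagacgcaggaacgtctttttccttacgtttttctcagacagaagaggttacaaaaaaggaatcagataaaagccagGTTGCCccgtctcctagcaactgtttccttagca
Hydin: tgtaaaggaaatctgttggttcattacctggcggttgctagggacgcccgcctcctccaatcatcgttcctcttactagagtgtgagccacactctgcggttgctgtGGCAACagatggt
Dynlrb2: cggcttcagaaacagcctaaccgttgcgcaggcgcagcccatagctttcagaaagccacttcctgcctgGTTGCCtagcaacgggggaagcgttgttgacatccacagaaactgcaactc
Cdhr3: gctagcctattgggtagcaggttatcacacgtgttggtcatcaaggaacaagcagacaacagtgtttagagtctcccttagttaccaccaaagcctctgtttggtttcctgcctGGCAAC
Lrrc23: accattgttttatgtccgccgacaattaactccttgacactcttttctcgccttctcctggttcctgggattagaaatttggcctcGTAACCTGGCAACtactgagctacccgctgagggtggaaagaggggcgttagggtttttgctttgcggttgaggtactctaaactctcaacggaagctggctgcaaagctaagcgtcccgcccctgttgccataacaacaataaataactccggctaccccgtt

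Bleomycin was followed by lower levels of many ciliary genes at days 1 and 2. At day 1, 18 of 34 members fell (52.9%) and none rose, against 16.7% of all genes that fell and 14.7% that rose. At day 2, 16 members fell (47.1%) and none rose, against 13.1% and 14.2% of all genes, and 10 fell without saline mouse 8. The median member changed by -0.32 on the log2 scale at both days, against -0.01 for all genes, and 31 of 34 differences were below 0 at each day. The changes were small: the largest of any member on any day was 1.73-fold. Over the 7 days, 23 members fell on 1 day or more, 6 rose on 1 day or more and 6 were called on no day. The shares of all genes called on 1 day or more, or on several days alike, were not counted. Such counts of members are therefore a description only.

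**Figure D2:**
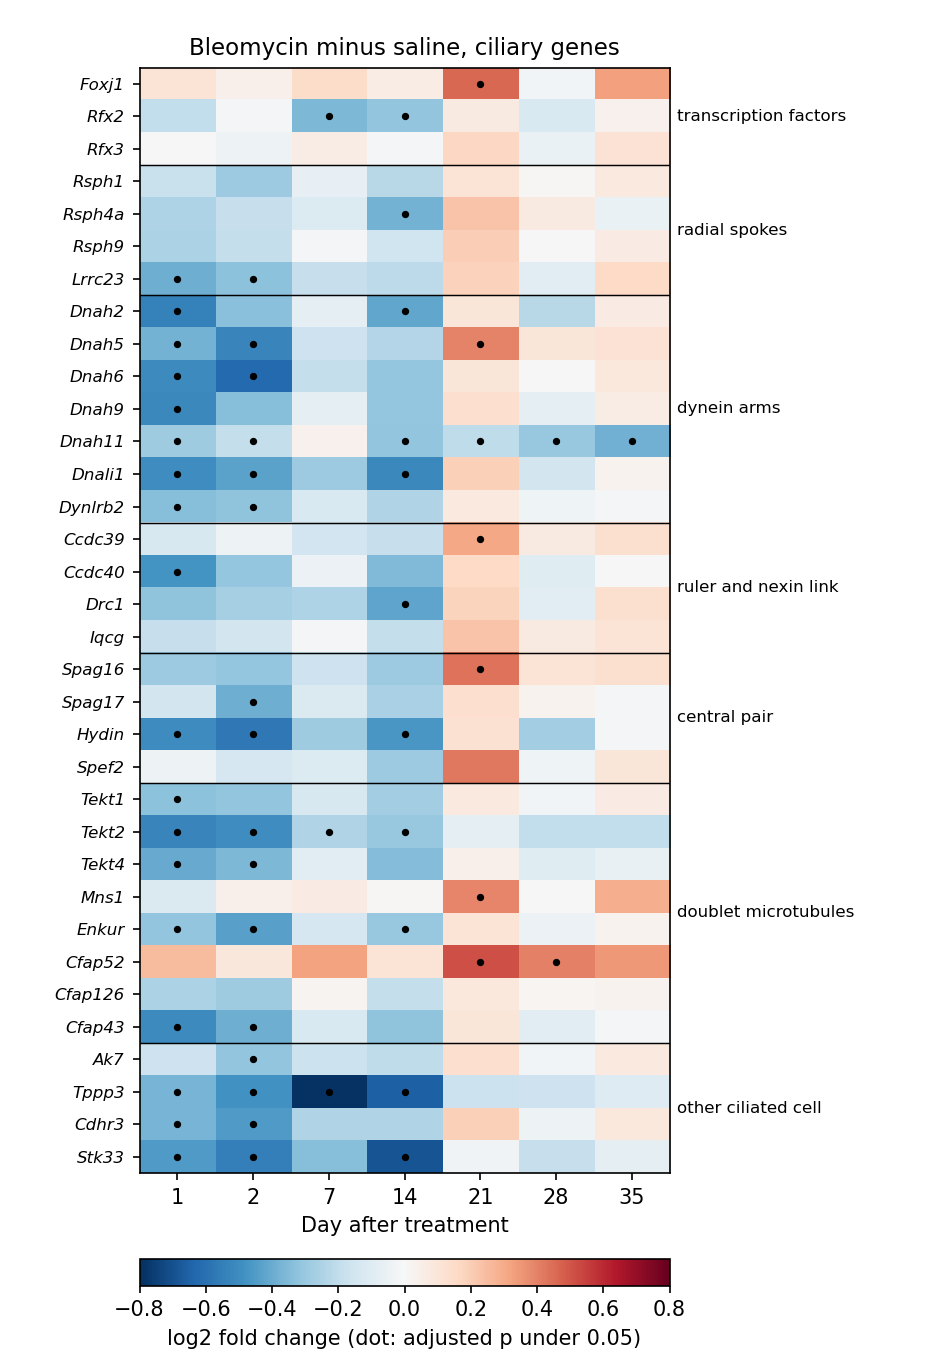
The color gives the log2 fold change of bleomycin over time-matched saline for each of the 34 ciliary genes (rows, grouped by role) on each of the 7 days, and a dot marks an adjusted p under 0.05 in limma. Lower levels fill days 1, 2 and 14. At day 21 most differences are above 0, with 17.6% of members called as rising against 20.5% of all genes.

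The dynein arms are the motors of the cilium. All 7 measured dynein genes fell at day 1 and 5 of 7 at day 2, against 16.7% and 13.1% of all genes. Dnah2, an inner arm heavy chain, had the largest fall of any member at day 1. Its levels in saline mice were 8.81 at lowest, 9.67 at the median and 9.96 at highest, and in bleomycin mice 8.59, 9.06 and 9.33. All 8 bleomycin mice were below the saline mean, but the groups overlapped, because saline mouse 7 was low. The fall was -0.54 ± 0.14 (SE, n = 8 and 8, limma adjusted p = 0.00187). Dnah9 and Dnah5, heavy chains of the outer arm, fell by 0.52 and 0.38 at the same day.

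Dnah6, another inner arm heavy chain, had the largest fall at day 2. Saline mice had 10.95 at lowest, 11.21 at the median and 11.46 at highest, and bleomycin mice had 10.31, 10.59 and 10.78. The groups did not overlap. The fall was -0.63 ± 0.14 (SE, n = 8 and 8, limma adjusted p = 0.000162), or 1.54-fold. At day 1 Dnah6 fell by 0.51, with 3 of 8 bleomycin mice below every saline mouse.

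Other parts of the axoneme held genes that fell beside genes that were not called. Of all genes, 16.7% fell at day 1 and 13.1% at day 2. A count of 1 among 4 genes cannot be told from these shares. Among the 8 doublet microtubule genes, 5 fell at day 1 and 4 at day 2, led by Tekt2, which fell by 0.53 and 0.49 (adjusted p = 4.05e-05 and 9e-05 in limma). Among 4 central pair genes, 1 fell at day 1 and 2 at day 2, led by Hydin, a very large protein whose loss in mice impairs ciliary bending, with falls of 0.50 and 0.57. Of the 4 radial spoke genes only Lrrc23 fell at these days, by 0.39 and 0.33. Rsph1, Rsph4a and Rsph9 were not called at either day. Of the 4 ruler and nexin link genes, only Ccdc40 fell, by 0.48 at day 1.

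The remaining 4 members mark ciliated cells and do not belong to the structures above. Of these, 3 fell at day 1 and all 4 at day 2, against 16.7% and 13.1% of all genes. Stk33, a kinase, fell by 0.45 and 0.55, Cdhr3, a cadherin of ciliated cells, by 0.37 and 0.45, and Ak7 by 0.32 at day 2. For Tppp3, saline mice at day 1 had 13.01, 13.14 and 13.33 (lowest, median and highest), and bleomycin mice 12.54, 12.78 and 12.95, so the groups did not overlap. They did not overlap at day 2 either, with 13.09, 13.14 and 13.20 in saline mice and 12.45, 12.68 and 12.81 in bleomycin mice. The falls were -0.37 ± 0.07 at day 1 and -0.48 ± 0.07 at day 2 (SE, n = 8 and 8 each, adjusted p = 4.78e-05 and 1.68e-07 in limma).

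The early falls have a limit in the controls. Saline mice were not the same at all days. By limma's F test 21 of 34 members differed between saline days, against 54.1% of all genes. Of the 34, 29 had their highest saline mean at day 1, and the share of all genes that did was not counted. The mean level of the 34 genes in saline mice was 10.07 at day 1 and from 9.66 to 9.87 at the other days, and the bleomycin mice of day 1 had 9.78. When all saline mice served as a common control, an alternative fixed with the design, 1 member fell at day 1 and 1 rose. The share of all genes called under that control was not counted. Tppp3 still fell, by 0.23 (adjusted p = 0.0025 in limma), while Foxj1 rose by 0.36 (adjusted p = 0.0383), and Dnah2 at -0.05 and Dnah6 at -0.14 were not called. At day 2 the falls of Dnah6, Hydin and Stk33 kept their size under that control, at -0.59, -0.65 and -0.53.

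**Figure D3:**
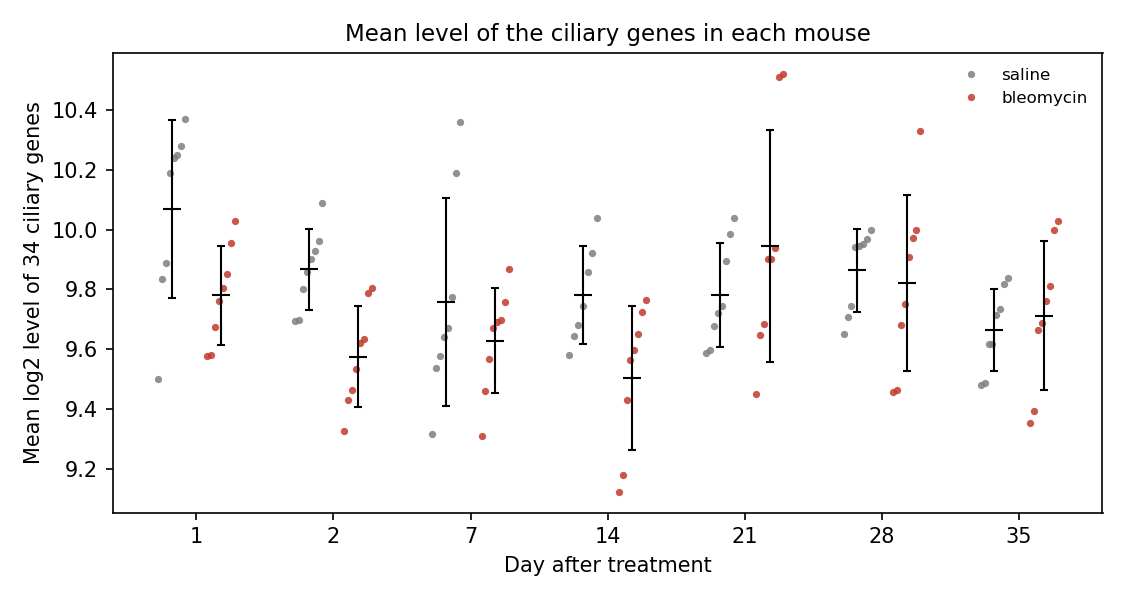
Each point is a mouse, giving the mean log2 level of the 34 ciliary genes by day and treatment, with the group mean and SD as bars. Saline mice of day 1 have the highest saline mean (10.07), and bleomycin mice lie low at days 2 and 14. At day 21, 2 bleomycin mice stand far above the rest of their own group.

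By mouse, the mean of the 34 genes was below the saline mean in 8 of 8 bleomycin mice at day 1, 8 of 8 at day 2 and 8 of 8 at day 14. At day 2, 6 bleomycin mice were below every saline mouse, and at day 14, 4 were. At day 1 none was, since saline mouse 7 lay 0.57 below its group mean.

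At day 7 the list as a whole lay closer to its control. Only 3 of 34 members fell and none rose, against 21.9% and 25.7% of all genes, and the median was -0.12. The members that fell were Tppp3, Rfx2 and Tekt2. Tppp3 had its largest change here: saline mice had 12.82, 12.99 and 13.14 (lowest, median and highest) and bleomycin mice 11.93, 12.21 and 12.50. The groups stood well apart. The fall was -0.79 ± 0.07 (SE, n = 8 and 8, limma adjusted p = 8.85e-16). Against all saline mice 16 members fell at this day, so this count depends on the control. How many of all genes fell under that control was not counted.

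At day 14, 11 of 34 members fell and none rose, against 19.7% and 21.9% of all genes, with a median of -0.29. Stk33 fell most. Its saline mice had 9.18, 9.43 and 9.62 (lowest, median and highest, n = 7) and its bleomycin mice 8.13, 8.71 and 9.33 (n = 8). Of the 8 bleomycin mice, 7 lay below every saline mouse. The fall was -0.69 ± 0.16 (SE, limma adjusted p = 0.000258), or 1.61-fold. Tppp3 fell by 0.65 with no overlap, and Dnali1 fell by 0.52. Of the dynein arms 3 of 7 fell, and the radial spoke head gene Rsph4a (by 0.38) and the nexin link gene Drc1 (by 0.42) fell at this day only. The members that fell at days 1, 2 and 14 alike were Dnah11, Dnali1, Hydin, Tekt2, Enkur, Tppp3 and Stk33, 7 in all. The share of all genes that fell at these days alike was not counted. A further, brighter probeset of Dnali1 was not called at day 2 (-0.19) or day 14 (-0.34). Against all saline mice 25 members fell at day 14, and without bleomycin mouse 4 the count was 18. The shares of all genes that fell in these fits were not counted.

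From day 21 on, few members were called. At day 21, 6 of 34 rose (17.6%) and 1 fell (2.94%), against 20.5% and 18.9% of all genes, and the median was 0.14. The share that rose was near that of all genes, so the count is not particular to the members. The genes that rose came from several structures: Foxj1, the dynein Dnah5, the ruler protein Ccdc39, the central pair protein Spag16 (by 0.43), and the doublet proteins Mns1 and Cfap52. At day 28, 1 rose (Cfap52) and 1 fell (Dnah11), against 11.5% and 11.8% of all genes, and 24 of 34 differences were below 0. At day 35 none rose and Dnah11 fell, against 16.9% and 12.5% of all genes, and 11 differences were below 0.

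The rises at day 21 rested on 2 mice. In bleomycin mice 3 and 7 the mean of the members lay 0.74 and 0.73 above the saline mean, and in the other 6 it lay between -0.33 and 0.16. Without both mice no member rose at day 21. Without mouse 3 alone 2 rose, without mouse 7 alone 1 rose, and in a fit of day 21 on its own none rose. The same 2 mice had the highest goblet cell scores of their group, at 1.80 and 1.95 against -0.55 to 0.75 in the other 6 and -1.35 to 1.07 in saline mice. Of the 7 goblet cell markers none was called at day 21. The airway basal cell scores of mice 3 and 7 were 1.03 and 1.55, and that of mouse 4 was 1.04, against -0.89 to 0.62 in saline mice. Of the 6 basal cell markers 1 rose, against 20.5% of all genes. Club cell scores of mice 3 and 7 were 0.47 and 0.49, beside 0.49 in mouse 4 and up to 0.47 in saline mice. The pan-epithelial scores of mice 3 and 7, 0.76 and 0.63, were the highest of their group, ahead of mouse 5 at 0.55. Saline mice had -0.11 to 0.12. Mice 3 and 7 had the lowest alveolar type 2 scores of their group, at -0.07 and -0.05, against -0.06 to 0.08 in saline mice. Their cartilage scores were 0.09 and 0.10, below that of mouse 8 at 0.19. The part of these cells in the ciliary result was not tested.

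Foxj1 was not called at days 1 and 2, when many structural genes fell, although its level followed theirs from mouse to mouse (r of 0.82 in saline and 0.87 in bleomycin mice). At day 1 its saline mice had 9.05, 10.04 and 10.31 (lowest, median and highest) and its bleomycin mice 9.57, 9.96 and 10.44, and the groups overlapped, with 2 of 8 bleomycin mice above every saline mouse. Its log2 fold change was 0.11 ± 0.17 at day 1 and 0.04 ± 0.17 at day 2, neither called. At day 21 it rose, from 9.31, 9.79 and 10.01 in saline mice to 9.53, 10.12 and 11.21 in bleomycin mice. The groups overlapped, with 5 of 8 bleomycin mice above every saline mouse, and the rise was 0.46 ± 0.17 (SE, n = 8 and 8, limma adjusted p = 0.0213). Averaged over the 7 days Foxj1 rose by 0.16.

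Rfx2 fell at days 7 and 14 only. At day 7 saline mice had 9.17, 9.33 and 9.49 (lowest, median and highest) and bleomycin mice 8.72, 8.95 and 9.31. Of the 8 bleomycin mice, 7 were below every saline mouse. The fall was -0.36 ± 0.08 (SE, n = 8 and 8, limma adjusted p = 0.000124), and it was -0.31 ± 0.08 at day 14. Rfx3 was called on no day, with differences between -0.05 and 0.17 and group medians from 5.76 to 6.07. Its brighter probeset was not called on any day either, with differences between -0.15 and 0.13, but its mean over the 7 days was -0.07 (adjusted p = 0.0202 in limma) against 0.03 for the chosen probeset.

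Cfap52, a protein inside the doublet microtubule, was the only member with a positive difference on all 7 days. At day 21 saline mice had 7.08, 7.68 and 8.23 (lowest, median and highest) and bleomycin mice 7.59, 8.18 and 9.05. The groups overlapped, and 3 of 8 bleomycin mice were above every saline mouse. The rise was 0.52 ± 0.16 (SE, n = 8 and 8, limma adjusted p = 0.00496), and the mean over the 7 days was 0.29 ± 0.06 (adjusted p = 8.54e-06).

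Dnah11 went the other way late. It fell on 6 of the 7 days, all but day 7, and was the only member that fell at days 21, 28 and 35. At day 35 saline mice had 10.28, 10.39 and 10.53 (lowest, median and highest) and bleomycin mice 9.79, 9.998 and 10.33. Of the 8 bleomycin mice, 7 were below every saline mouse. The fall was -0.39 ± 0.08 (SE, n = 8 and 8, limma adjusted p = 3.79e-05), after -0.20 at day 21 and -0.30 at day 28.

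**Figure D4:**
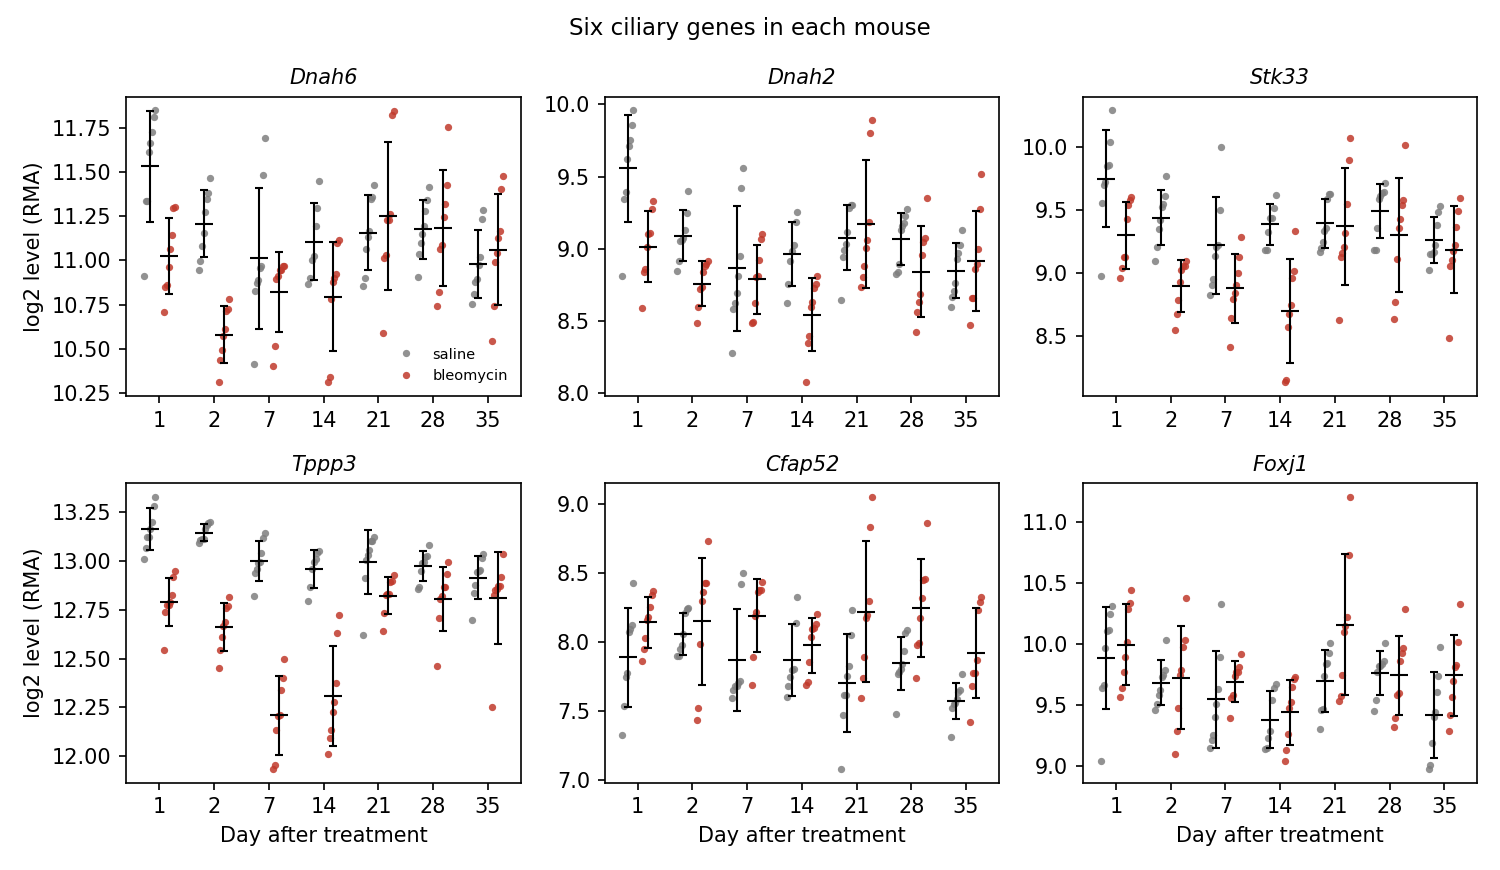
Log2 levels of 6 ciliary genes in each mouse by day, gray for saline and red for bleomycin, with group means and SDs as bars; each panel has its own y axis, which does not start at 0. Dnah6 separates at day 2, Tppp3 at days 1, 2, 7 and 14, and Foxj1 and Cfap52 spread upward in bleomycin mice at day 21.

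The change over time was tested as a difference between responses. The response at days 21, 28 and 35 was higher than that at days 1 and 2 for 22 of 34 members and lower for none, against 16.3% and 12.2% of all genes, with a median difference of 0.34. Of the 7 dyneins 6 were among them, led by Dnah5 with 0.66 ± 0.14 and Dnah6 with 0.63 ± 0.12, and Dnah11 was not, at -0.06 ± 0.07. All 4 other ciliated cell genes and 6 of the 8 doublet genes were higher. Foxj1, Rfx2, Rfx3 and Cfap52 showed no called difference, with 95% intervals of -0.12 to 0.48, -0.05 to 0.25, -0.04 to 0.23 and -0.03 to 0.53. Against all saline mice the count was 11 higher and 1 lower, and the share of all genes was not counted there.

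Between days 7 and 14 and days 1 and 2, 2 members differed, both lower later, against 15.8% of all genes lower and 20.4% higher: Tppp3 by -0.29 and Rfx2 by -0.23. From days 7 and 14 to days 21, 28 and 35 the response rose for 11 members and fell for none, against 11.9% and 14.9% of all genes, with Tppp3 at 0.57 ± 0.07 (adjusted p = 1.46e-10 in limma). Averaged over the 7 days, 20 members fell and 2 rose, against 33.4% and 32.9% of all genes. Tppp3 had the largest fall of that mean, -0.39 ± 0.03, ahead of Stk33 at -0.33, Tekt2 at -0.29 and Hydin at -0.28.

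Ciliary genes outside the list were counted in the same way. Of 58 other axoneme genes, 20 fell at day 1 and 14 at day 2, against 16.7% and 13.1% of all genes. At day 14, 13 fell, and at day 21, 11 rose, which is near the 19.7% of all genes that fell and the 20.5% that rose at those days. Dnaic1, an outer arm intermediate chain, fell by 0.32 at day 1 and 0.50 at day 14, and Iqca fell by 0.61 at day 1. Dnah8, a heavy chain best known from sperm, fell by 0.80 at day 7 and still by 0.68 at day 21, while Cfap53 rose by 0.50 and 0.63 at those days. Among 9 dynein arm assembly factors, 3 fell at day 1, Dnaaf1 by 0.43, Daw1 by 0.37 and Zmynd10 by 0.36, and 1 rose.

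Intraflagellar transport genes are also used by cells with a primary cilium. Of 28, 9 fell and 1 rose at day 1, against 16.7% and 14.7% of all genes, with a median of -0.09. At day 21, 2 fell and 7 rose, with a median of 0.08, and the share that rose was near the 20.5% of all genes. Bbs2 and Bbs4, of the complex that carries membrane proteins into cilia, fell by 0.44 and 0.16 at day 7, while Kif3a, a motor of the pathway, rose by 0.30.

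The genes that start multiciliation went another way at day 7. Of 11 measured, 3 fell and none rose at day 1, against 16.7% and 14.7% of all genes. At day 2, 3 rose, against 14.2% of all genes, then 6 at day 7 (25.7%), 5 at day 14 (21.9%) and 4 at day 21 (20.5%), and the median at day 7 was 0.31. Ccno, a cyclin-like protein needed to multiply centrioles, rose by 0.54 at day 2 and 0.56 at day 7 and by 0.46 at day 14, and was not called at day 21, at 0.17. Stil, Plk4 and Sass6 rose most at day 7 or 14, Stil by 1.86 and Plk4 by 1.03 at day 7. These 3 also build centrioles in any dividing cell, and all 4 measured proliferation genes rose at days 7, 14 and 21, with a median of 1.52 at day 7. The part of dividing cells in this rise was not tested.

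**Figure D5:**
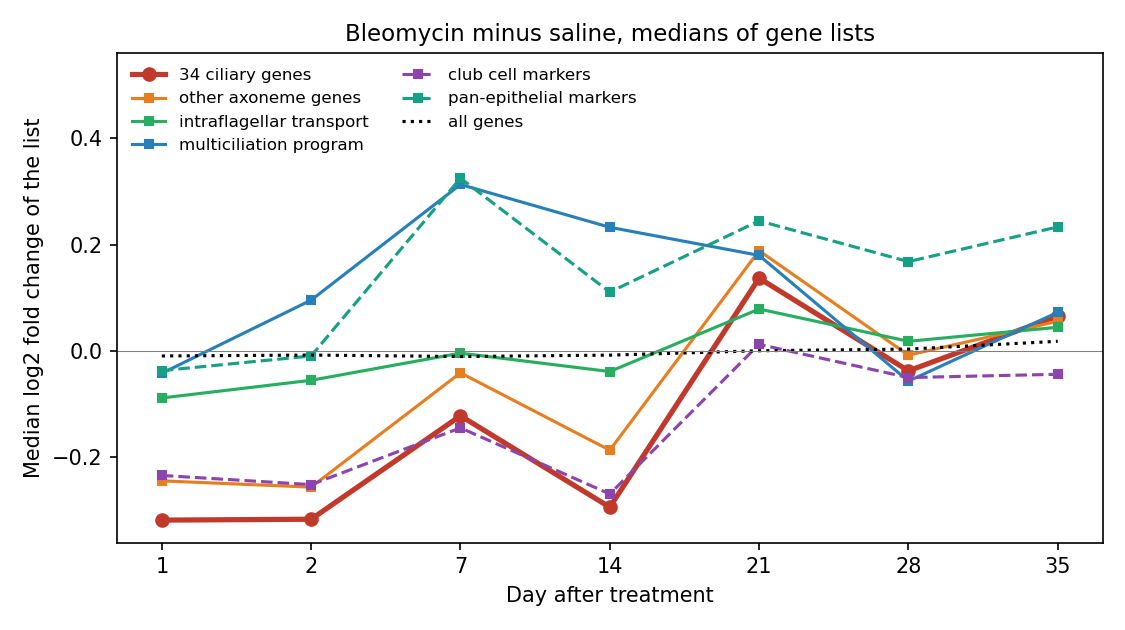
Each line joins the median log2 fold change (bleomycin minus time-matched saline) of a gene list over the 7 days. The 34 ciliary genes start at -0.32, lie at -0.29 at day 14 and at 0.14 at day 21, the other axoneme genes lie near them, and the multiciliation genes peak at day 7 (0.31).

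Markers of several other lung cells fell on the same days. Of the 9 club cell markers, 4 fell at day 1, 3 at day 2, 3 at day 7 and 6 at day 14, against 16.7%, 13.1%, 21.9% and 19.7% of all genes, and none rose. Cyp2f2, a club cell cytochrome, fell by 0.25, 0.29, 0.40 and 0.37 at these days, and Cldn10 fell by 0.78 at day 14, while Scgb1a1, the main club cell secretion, was called only at days 1 and 14, with falls of 0.07 and 0.06. The mean of the club cell markers, set against saline of the same day, ran from -1.06 to -0.06 in bleomycin mice and from -0.66 to 0.19 in saline mice at day 1, and from -1.13 to -0.05 and from -0.30 to 0.33 at day 14. Of the 6 airway basal cell markers none was called at days 1, 2 and 14, and of the 7 goblet cell markers 2 fell at day 1 and none was called at days 2 and 14. Of the 5 mesothelial markers 3 fell at day 7 and 3 at day 14, with medians of -0.49 and -0.53, and their mean at day 14 ran from -1.06 to 0.10 in bleomycin mice and from -0.18 to 0.15 in saline mice. Of the 6 alveolar type 2 markers 4 fell at day 7 and 5 at day 14, with medians of -0.11 and -0.15, and their mean at day 14 ran from -0.31 to -0.02 and from -0.05 to 0.04. Of the 6 pan-epithelial markers 1 fell at day 1 and 1 at day 2, near the 16.7% and 13.1% of all genes, with medians of -0.04 and -0.01. At day 7, 4 rose, against 25.7% of all genes, Cldn4 by 2.62 and Epcam by 0.23. All 5 smooth muscle genes fell at day 1, with a median of -0.73, against 16.7% of all genes. Their mean ran from -1.30 to -0.27 in bleomycin mice and from -0.70 to 0.59 in saline mice. All 5 fell again at days 21 and 28, against 18.9% and 11.8% of all genes, when the ciliary genes were near or above their controls. How far the makeup of each lung sample moved the ciliary levels was not tested.

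For the 11 genes with further probesets, the 15 that were not chosen shared the sign of the chosen one in 12 cases at day 1, 14 at day 2, 11 at day 7, 14 at day 14 and 11 at day 21. They shared it in 10 at day 28, 8 at day 35 and 9 for the mean of the 7 days. Of these 15, 2 were called at day 1, 1 at day 2, 3 at day 7, 2 at day 14 and 3 at day 21. None was called at days 28 and 35, and 7 were called for the mean of the 7 days. A further, dim probeset of Dnah9 was called at day 21 at -0.54, where the chosen one was at 0.14 and not called. The share of all probesets called was not counted. The chosen probeset was the one with the larger variance by rule.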

How the data were processed

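Whole lung RNA was amplified (NuGen Ovation) and read on Affymetrix mouse arrays. Before they deposited the table, the authors dropped probes that did not map uniquely or were outdated, summarized the rest with RMA into log2 levels and removed 1 saline array of day 14 after a principal component analysis; the genome build of that mapping is not given in the sources used here. Of 32688 probesets, 314 named several genes and 4503 none, which left 27871 probesets of 15707 genes. The probeset with the highest variance stood for a gene; the study's methods name a variance filter for this step without its rule. Limma 3.58.1 in R 4.3.3 fitted 1 mean per group over all 14 groups with empirical Bayes, and p-values were adjusted by Benjamini-Hochberg within each contrast. Mice are separate animals. No array was identical to another, and the median correlation of an array with its own group ranged from 0.97847 to 0.99482. The number of arrays limits the precision.

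The members and gene lists were chosen with earlier results of these data known, and support nothing on their own. Levels by mouse are given for Foxj1, Rfx2, Rfx3 and the called members with the largest rise and fall of each day and of the mean of the 7 days; of other genes, at most 3 per day and direction, the leading gene of each role group, and from each other list its first marker and the 3 largest changes, besides genes named to account for a count. Genes named as exceptions in covariation or between days were chosen after their values were seen. Alternatives were another probeset rule, a filter on dim genes, repeated quantile normalization, array weights, a fit per day, no empirical Bayes, a replicate block, a common saline control and a left-out array.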

Additional observations from a re-analysis of the deposited data

Results flagged for a closer look

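Among the 9 genes described by mouse and the mean of the members, 4 values stood apart from their group in 140 groups tested, and chance alone marks about 1 in 20 groups. Saline mouse 4 of day 21 was lowest for Rfx2, at 8.86 with the nearest mouse at 9.21, and for Tppp3, at 12.62 with the nearest at 12.91. Bleomycin mouse 3 of day 35 was lowest for Tppp3, at 12.25 with the nearest at 12.83, and its array had the lowest median correlation with its group (0.97847). Bleomycin mouse 1 of day 14 was highest for Dnah11, at 10.41 with the nearest at 10.21.

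Several responses to bleomycin differed between times by limma's test of the difference. From days 1 and 2 to days 21, 28 and 35 the response rose by 0.28 for Tppp3 (adjusted p = 0.000646), 0.42 for Dnah2 (adjusted p = 0.00951), 0.63 for Dnah6 (adjusted p = 3.6e-05) and 0.40 for Stk33 (adjusted p = 0.0251). From days 1 and 2 to days 7 and 14 it moved by -0.23 for Rfx2 (adjusted p = 0.0207) and -0.29 for Tppp3 (adjusted p = 0.000955). From days 7 and 14 to the late days it rose by 0.33 for Rfx2 (adjusted p = 0.000366), 0.57 for Tppp3 (adjusted p = 1.46e-10) and 0.42 for Stk33 (adjusted p = 0.021).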

How the results depend on the processing

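Over 11 alternatives, 1071 of 1148 values of single genes stayed on their side of the threshold, 50 passed it, 24 lost it and 3 reversed. A change of sign was counted as reversed only where the value was called in either fit. Some of the 1071 therefore changed sign without being called, such as Foxj1 at day 14, at 0.06 in the reported fit and -0.19 against all saline mice. With all saline mice as control, 1 member fell at day 1 (18 in the reported fit), 16 at day 7 (reported 3), 25 at day 14 (reported 11), 2 at day 21, 2 at day 28 and 4 at day 35; 1 rose at day 1, 1 at day 2 and 1 at day 7; late against early gave 11 higher and 1 lower, days 7 and 14 against early 5 lower, and late against days 7 and 14 gave 24 higher. Under that control Foxj1 reversed in the contrast of days 7 and 14 with days 1 and 2 (-0.29, adjusted p = 0.039), as did Dnah11 at day 7 (-0.17, adjusted p = 0.0213), and with the brightest probeset Rfx3 reversed in the mean of the 7 days (-0.067, adjusted p = 0.0197). That control holds the saline mice of the other days, whose levels differ. For none of the alternatives was the share of all genes called counted, so these counts of members have no background beside them.

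With array weights 20 members fell at day 14, 1 rose and 2 fell at day 21, 1 rose at day 7, 3 rose at day 35, 2 were higher at days 7 and 14 than early, and 1 was lower late than at days 7 and 14. A fit per day gave 0 rises and 0 falls at day 21 and 1 rise at day 35. With the brightest probeset, or the mean of all probesets, 1 rose at day 7 and 0 at day 28; without empirical Bayes 0 rose at day 28. Without the 30% dimmest genes, with quantile normalization repeated, or without bleomycin mouse 3 of day 35, 2 fell at day 21; without that mouse 1 rose at day 35. The causes of these differences were not tested.

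Leaving out each mouse of days 1, 2, 14 and 21 in turn gave 13 to 22 falls at day 1, 10 (without saline mouse 8) to 19 at day 2, 8 to 18 (without bleomycin mouse 4) at day 14, and 1 to 7 rises and 0 to 2 falls at day 21, where mice 3 and 7 together brought the rises to 0. Leave-one-out and the pair were chosen after seeing the data. With the mouse number as a replicate block 1 rose at day 7, 20 fell at day 14 and 2 rose at day 35; the numbers only name mice, since 23 of 55 same-numbered pairs had r over 0.1 (range -0.33 to 0.41) and 6 saline mice were closest to their own number.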
